A study of Mus musculus with 36 samples.

Results

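Macrophages of the infarcted left ventricle were compared between mice at day 3 after myocardial infarction (MI) and mice at day 1 after ischemia-reperfusion (IR). Cells had been measured with SORT-seq, in which each well of a multi-well plate receives 1 sorted cell and transcripts are counted by unique molecular identifiers (UMIs), short random tags added to each captured molecule. A well was taken as a macrophage when it held at least 1000 UMIs from nuclear genes and when Lyz2, Ctss, C1qa, C1qb, C1qc, Cd68, Csf1r and Mrc1 together made up at least 1% of them. The neutrophil genes S100a8 and S100a9 had to stay under 1%, and the fibroblast genes Col1a1, Col1a2, Col3a1, Dcn and Lum under 2%. By this rule 161 wells on 5 MI plates and 30 wells on 8 IR day 1 plates were macrophages, 191 of the 410 such wells in the series, which held 3146 wells of at least 1000 UMIs. The 9th IR day 1 plate was left out because some of its wells repeat wells of other plates.

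Both groups were male C57BL/6 mice of 8 weeks, and tissue came from the infarcted region of the left ventricle. In MI a coronary artery, the left anterior descending, stayed tied off, and in IR the tie on this artery was released after 1 hour. The labels name no genetic change and no drug in either group. Day after surgery, kind of ligation and library batch (the MI plates carry a protocol label of their own) all differ between the groups and cannot be told apart. Plates stood as replicates. The study used fewer mice than there are MI plates and does not say which mouse a plate came from, so p-values measure the spread between plates and may be too small.

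Macrophages of the injured heart come from cells that live in the tissue and from blood monocytes that enter within hours and mature there. Early after injury they release chemokines and cytokines that draw in further leukocytes. Later they clear dead cells, digest them in lysosomes, handle the lipid that is taken up, and release factors that act on matrix and fibroblasts.

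The MI plates were deeper than the IR day 1 plates, at 2420593 to 4261077 nuclear UMIs per plate against 334398 to 797146. The median share of mitochondrial UMIs in macrophage wells, a sign of RNA quality, was 6.12% to 15.1% on the MI plates, 15.5% on IR day 1 replicate 3 and 9.57% to 33.8% on the other 7 plates, and in the wider set described below it was 6.35% to 13.7% against 9.04% to 30.7%. Its part in the results was not tested. The median macrophage well held 10304.5 to 30490 UMIs on the MI plates and 9571 on IR day 1 replicate 3, the IR day 1 plate with the most macrophage wells. Thinned to 1000 UMIs, the median well showed 668.5 to 686 genes on the MI plates and 677 on that IR plate. The 15 macrophage markers fixed for the check of the label, which include the genes of the rule, summed to 2.13% to 2.27% of UMIs on the MI plates, to 2.38% on IR day 1 replicate 3 and to 2.34% over the other 7 IR day 1 plates. None of the 15 was at 0 in either group. Fibroblast markers summed to 0.109% to 0.223%, 0.0673% and 0.0254% in the same order, and cardiomyocyte markers to 0.0243% to 0.0774%, 0.0897% and 0.0545%. All plates share the same set of well barcodes, so repeated cells were searched by profile: 3 of the 4 macrophage wells of IR day 1 replicate 5 match wells of the plate left out, and no macrophage well of replicate 3 matches another plate.

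The threshold of 1% has no gap around it. Between 0.9% and 1% lay 22 MI wells and 2 IR day 1 wells, and between 1% and 1.1% lay 18 and 4. Between 0.5% and 1% lay 144 MI wells and 26 IR day 1 wells.

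Macrophage wells made up a larger share of the wells on the MI plates. Of wells with at least 1000 UMIs, they were 30.2%, 22.4%, 12.8%, 27.1% and 20.4% on MI replicates 1 to 5. On the 8 IR day 1 plates the share ran from 2.00% to 14.0% with a median of 3.59%. The mean was 22.6% ± 6.70 (SD, n = 5) against 5.76% ± 4.53 (SD, n = 8), a difference of 16.8 percentage points (exact permutation test over plates, two-sided, p = 0.00311). The ranges overlap, as IR day 1 replicate 3 at 14.0% lay above MI replicate 3 at 12.8%. A share of wells passing a depth and a marker threshold is not a number of cells per heart. At a threshold of 2% in place of 1% the difference was 1.88 points (p = 0.0404 in the same exact permutation test).

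**Figure D1:**
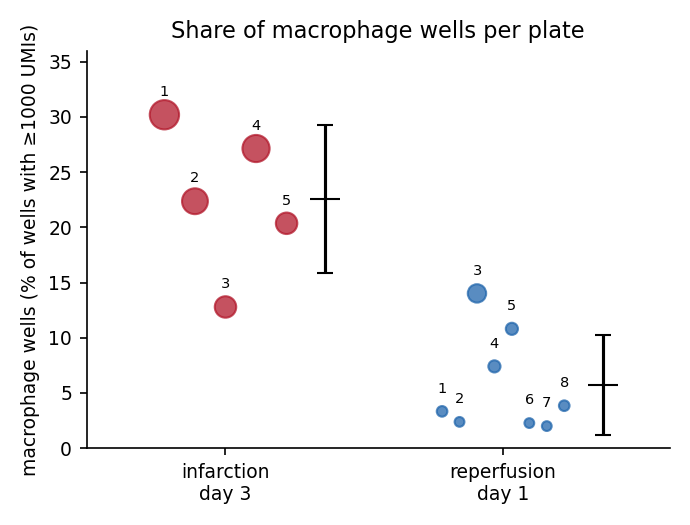
Share of macrophage wells on each plate. The y axis gives macrophage wells as a percentage of wells with at least 1000 UMIs, each circle is 1 plate labelled with its replicate number and sized by its number of macrophage wells, and lines give the mean and SD of the group. The 5 MI plates lie between 12.8% and 30.2%, and the 8 IR day 1 plates between 2.00% and 14.0%.

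Gene levels were compared on UMIs summed over the macrophage wells of a plate. Of the IR day 1 plates only replicate 3, with 15 wells and 151655 UMIs, reached the 5 wells required, so the comparison set 5 MI plates (22 to 45 wells each) against a single IR day 1 plate that was assumed to vary as the MI plates do. The other 7 IR day 1 plates, with 1 to 4 wells each and 15 wells in all, were summed as a second library of about the same size and compared in the same way, as a check added after the data were seen. Levels are given as CPM, the UMIs of a gene after each library is scaled to the same total. In edgeR's quasi-likelihood test with Benjamini-Hochberg adjustment 22 of 9260 genes differed at adjusted p of 0.05 or less (0.238%), 9 of them higher in MI (0.0972%) and 13 lower (0.14%), while 1163 had an unadjusted p under 0.05. With 1 plate on a side, 63.8% of the genes tested had no overlap between the groups, so lack of overlap carries little here. Over all genes tested the log2 fold changes had a median of 0.13, or -0.02 with the 822 genes that had 0 UMIs on the IR plate set at their lower bound (3 UMIs on that plate). Against the other 7 plates 0.908% of 9138 genes were called (40 higher, 0.438%, and 43 lower, 0.471%). The fits share the 5 MI plates, so values are given side by side. The calls rest on the spread assumed for the single plate. With the IR day 3 plates in the same fit, so that their spread enters as well, 28 genes were called, 1 higher and 27 lower. Of the 9 higher genes only Bgn passed there, which had 0 UMIs on IR day 1 replicate 3 and entered the test through the other plates alone, while Ctsd, Apoe, Spp1, Fabp5, Gnas, Tmsb10, Rps23 and Erdr1 did not (adjusted p = 0.0653 to 0.616, edgeR). Of the 13 lower genes C5ar1, Ccl3 and St3gal1 did not (adjusted p = 0.0822, 0.148 and 0.0653). Without MI replicate 1 or MI replicate 4, Ctsd, Apoe, Tmsb10, Rps23 and Oas3 lost the call (adjusted p = 0.0502 to 0.0989), and Mx1 and St3gal1 did so without MI replicate 1 (adjusted p = 0.0712 and 0.0615).

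**Figure D2:**
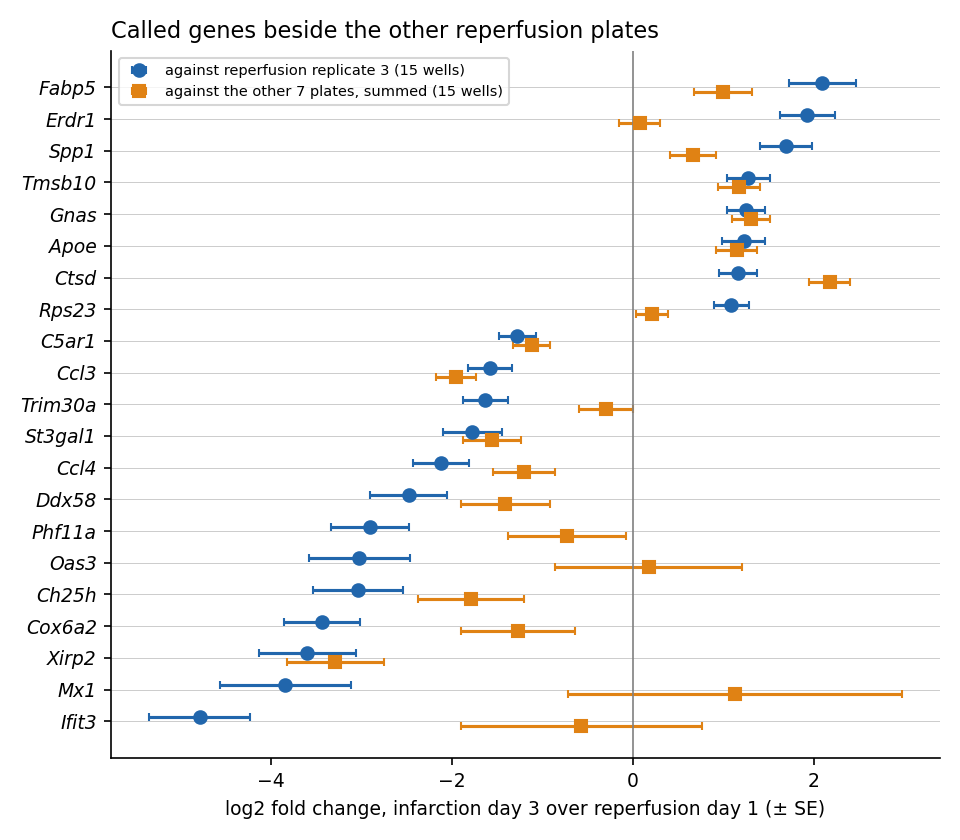
Log2 fold change, MI day 3 over IR day 1, of the called genes that had UMIs on IR day 1 replicate 3. Circles give the fit against replicate 3 and squares the fit against the sum of the other 7 IR day 1 plates, with bars of 1 SE. Values of Gnas, Apoe, Tmsb10, C5ar1 and St3gal1 lie close together in both fits, while Ifit3, Mx1 and Oas3 lie far below 0 against replicate 3 and near or above 0 against the other plates.

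To bring more IR day 1 plates into the comparison, the threshold for the macrophage genes was lowered from 1% to 0.5%, a choice made after the data were seen. It gave 305 MI wells on 5 plates and 50 IR day 1 wells on 5 plates (replicates 1, 3, 4, 5 and 8 with 7, 26, 5, 7 and 5 wells), and so wells that the 1% rule leaves out. In this wider set 190 of 6517 genes were called (2.92%), 136 higher in MI (2.09%) and 54 lower (0.829%), and 146 of the 190 had no overlap between the plates, where 5.88% of all genes tested had none. The wider set holds all MI wells of the 1% rule and 27 of its 50 IR day 1 wells also pass that rule, so it is no independent repeat. With 1 plate left out at a time 92 to 243 genes were called, and with every well of the wider set thinned to 1000 UMIs 22 of 494 (4.45%), 10 higher (2.02%) and 12 lower (2.43%). Genes named below from the wider set were chosen after their values were seen. Results are given by the role of the genes, with the 1% rule first.

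**Figure D3:**
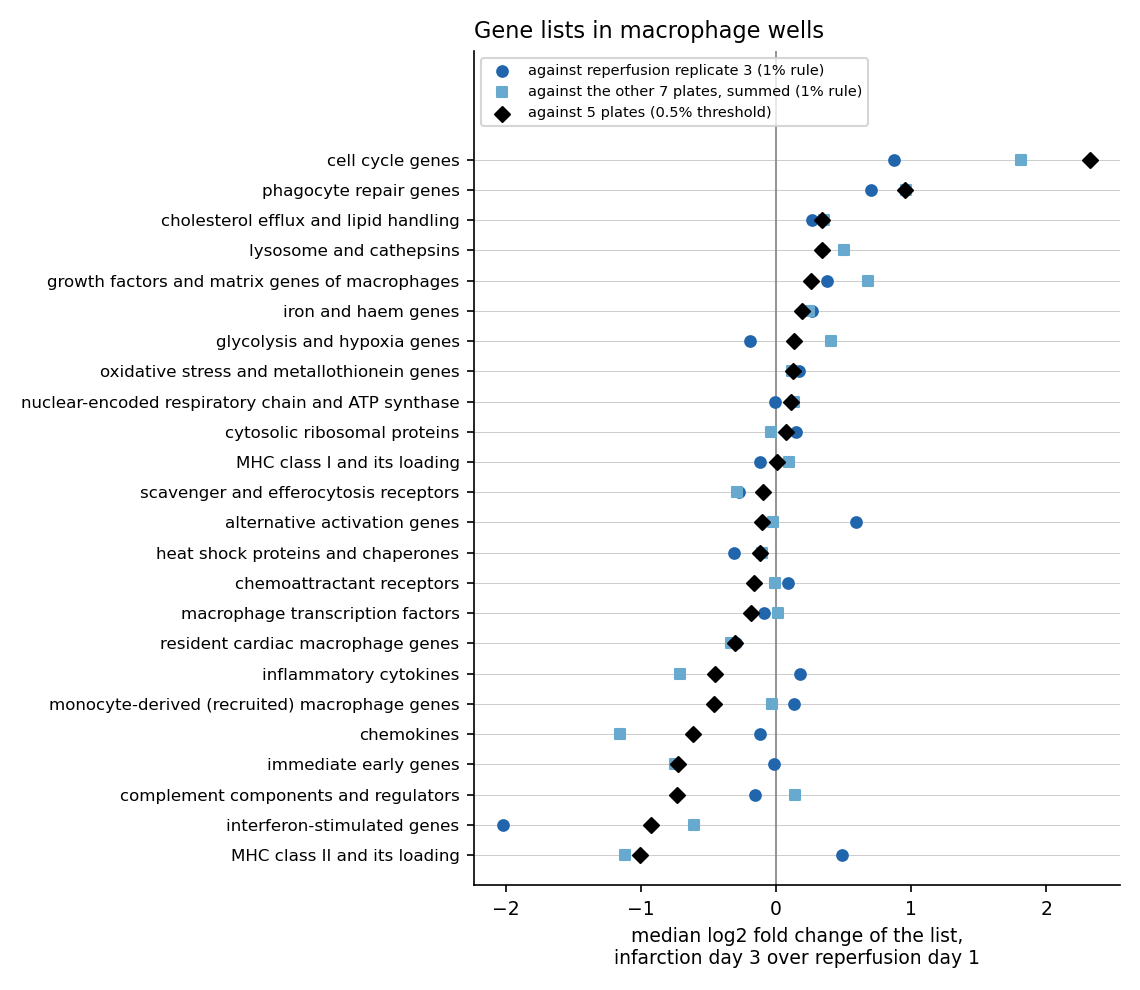
Median log2 fold change, MI day 3 over IR day 1, of the tested members of each of 24 gene lists. Circles compare with IR day 1 replicate 3 and squares with the sum of the other 7 plates, both at the 1% rule and with genes at 0 on the IR side set at their bound, and diamonds give the wider set at 0.5% with 5 plates on each side. Phagocyte repair genes lie right of 0 in all 3 fits, while the medians of the interferon and MHC class II lists move far between fits.

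Several genes of digestion and lipid handling were higher in MI. Ctsd (chr7:142375911-142388038, GENCODE vM21 on GRCm38) encodes cathepsin D, an aspartic protease of the lysosome. Its level was 5286, 6310.2, 5174, 6364 and 4782 CPM on MI replicates 1 to 5, 2598 CPM on IR day 1 replicate 3 and 1280 CPM over the other 7 plates. All 5 MI plates lie above both IR values. The log2 fold change was 1.16 ± 0.21 (SE, adjusted p = 0.0403, edgeR) against replicate 3 and 2.18 ± 0.22 (adjusted p = 0.000369) against the other plates. At the 0.5% threshold the IR day 1 plates ran from 341 to 2614 CPM and the MI plates from 4227 to 5818 CPM, with no overlap (log2 fold change 1.69, adjusted p = 0.00545). With every well thinned to 1000 UMIs, the wider set gave 1.62 (adjusted p = 0.00318). At the 1% rule thinned wells gave 0.84 against replicate 3, which did not pass.

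The promoter of Ctsd is shown because the gene was called against both IR libraries and in the wider set. Its window also holds the palindrome TCACGTGA, the core of the element bound by TFEB and related factors that act on lysosomal genes. The sequence gives the 250 bases before the RefSeq start in GRCm38.p6 (chr7:142387828-142388077, minus strand, 5′ to 3′), with the palindrome in capitals at 99 to 92 bases before the start:
Ctsd: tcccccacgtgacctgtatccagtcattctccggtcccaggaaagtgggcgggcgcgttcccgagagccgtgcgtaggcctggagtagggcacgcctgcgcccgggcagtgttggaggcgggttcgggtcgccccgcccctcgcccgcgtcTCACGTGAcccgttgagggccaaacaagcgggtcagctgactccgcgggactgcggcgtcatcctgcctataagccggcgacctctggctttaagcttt
Searched on both strands, TCACGTGA lay in the same window of 245 of 27025 genes (0.907%) and of 3 of 21 lysosomal genes with a promoter on file (Atp6v1a, Ctsa and Ctsd). A match of letters is a description and not a site of binding.

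Of the 27 lysosomal genes tested at 1%, 1 passed the test (Ctsd) and 0 were lower, and the list's median log2 fold change was 0.34 beside 0.13 for all genes. Against the other 7 plates 5 of 27 were higher (Ctsd, Ctsb, Lipa, Psap and Man2b1) and 0 lower. In the wider set 5 of 26 were higher (Ctsd, Ctsb, Lipa, Psap and Atp6v1a) and 0 lower, with 23 of the 26 above 0. Ctsb, the protease cathepsin B, was at 11444, 10777, 8881, 11153 and 8361 CPM in MI and at 4277, 7223, 5210, 4567 and 1761 CPM on the IR day 1 plates, with no overlap (log2 fold change 1.15 ± 0.26, adjusted p = 0.0149). Lipa, the acid lipase that frees cholesterol from its esters, was at 360.5 to 491 CPM against 130.5 to 327 CPM (log2 fold change 1.14, adjusted p = 0.00797). Psap, the precursor of the saposins, and Atp6v1a, a subunit of the proton pump of the lysosome, gave 0.85 (adjusted p = 0.0274) and 0.78 (adjusted p = 0.012). After thinning to 1000 UMIs Ctsd and Ctsb were still called, and Lipa (0.67, adjusted p = 0.498), Psap (0.62, adjusted p = 0.139) and Atp6v1a (0.52, adjusted p = 0.484) were not. Psap was also lost when IR day 1 replicate 1 or MI replicate 2, 3 or 4 was left out, with an adjusted p of up to 0.0873. The lysozyme gene Lyz1 was at 8488 to 11046 CPM in MI and 7675 CPM on IR day 1 replicate 3 (adjusted p = 0.507), but its near-identical copy Lyz2 is a gene of the rule, and how reads were split between them is uncertain.

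Among genes known from lipid-laden and tissue-repairing phagocytes, Apoe, Spp1 and Fabp5 were called higher than on IR day 1 replicate 3, 3 of 17 tested with 0 lower, and 16 of the 17 lay above 0 (median log2 fold change 0.70). Apoe (chr7:19696109-19699188) encodes the lipid carrier apolipoprotein E. It was at 8228, 9683, 8995, 7825 and 6466 CPM on the MI plates, 3679 CPM on IR day 1 replicate 3 and 3861 CPM over the other plates, so the lowest MI plate exceeds both. The log2 fold change was 1.23 ± 0.23 (adjusted p = 0.05) against replicate 3 and 1.15 ± 0.22 (adjusted p = 0.0282) against the others. The wider set gave a level 2.14-fold higher in MI (adjusted p = 0.000681), and a log2 fold change of 1.38 (adjusted p = 0.00259) after thinning. At the 1% rule thinned wells gave 0.79 against replicate 3, which did not pass. Spp1, the secreted phosphoprotein osteopontin, was at 6914, 8338, 5586, 9287 and 9395 CPM in MI, 2552 CPM on replicate 3 and 5162 CPM over the others. Its log2 fold change of 1.69 ± 0.28 (adjusted p = 0.0261) against replicate 3 was 0.67 (adjusted p = 0.242) against the other plates, and in the wider set the IR day 1 plates spread from 126 to 9230.1 CPM and overlapped the MI plates (adjusted p = 0.551). Fabp5, a carrier of fatty acids, was at 1183, 1929, 1131, 1046 and 1162 CPM in MI and at 317 and 672 CPM in the IR libraries (log2 fold change 2.09 ± 0.37, adjusted p = 0.0352, and 1.00, adjusted p = 0.17, against the other plates).

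Of this list 7 of 17 genes were higher in the wider set and 0 lower, with a median of 0.95 beside 0.01 for all genes. The 7 include Gpnmb and Mmp12, which entered the test through the MI plates alone and could only come out higher. Gpnmb (chr6:49036546-49070929), a membrane glycoprotein of phagocytes, was at 446, 1117, 509, 410.1 and 832 CPM on the MI plates and at 16.8, 149.8, 0, 104 and 0 CPM on the IR day 1 plates (log2 fold change 3.09 ± 0.46). With 48 UMIs over the IR plates, Gpnmb passed the filter on low counts through the MI plates alone, so its levels are a description. The groups do not overlap, and the log2 fold change was 3.17 after thinning. At the 1% rule the fold was similar, at 2.95 ± 0.80, but did not pass the test (adjusted p = 0.159). The metalloelastase gene Mmp12 was at 104 to 352 CPM against 0 to 25.2 CPM with 10 UMIs over the IR plates, so it passed the filter on low counts through the MI plates alone and its levels are a description. Lgals3, which encodes the lectin galectin-3, was at 2752 to 3508 CPM against 914 to 2590.4 CPM (0.98, adjusted p = 0.016). Trem2, a lipid-sensing receptor, Plin2, which coats lipid droplets, and Anxa1, which encodes the phospholipid-binding annexin A1, gave log2 fold changes of 0.99, 0.96 and 0.95 (adjusted p = 0.0279, 0.0127 and 0.0217). Thinned to 1000 UMIs, Lgals3 (0.47), Trem2 (0.48) and Plin2 (0.33) did not pass, and Trem2 was lost in 5 of 10 fits that left out a plate, with an adjusted p of up to 0.0719. Anxa1 was lost in 2 of the 10, with an adjusted p of up to 0.0533. At 1% 3 of 18 genes of this list were higher against the other 7 plates (Apoe, Lgals3 and Trem2) and 0 lower.

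**Figure D4:**
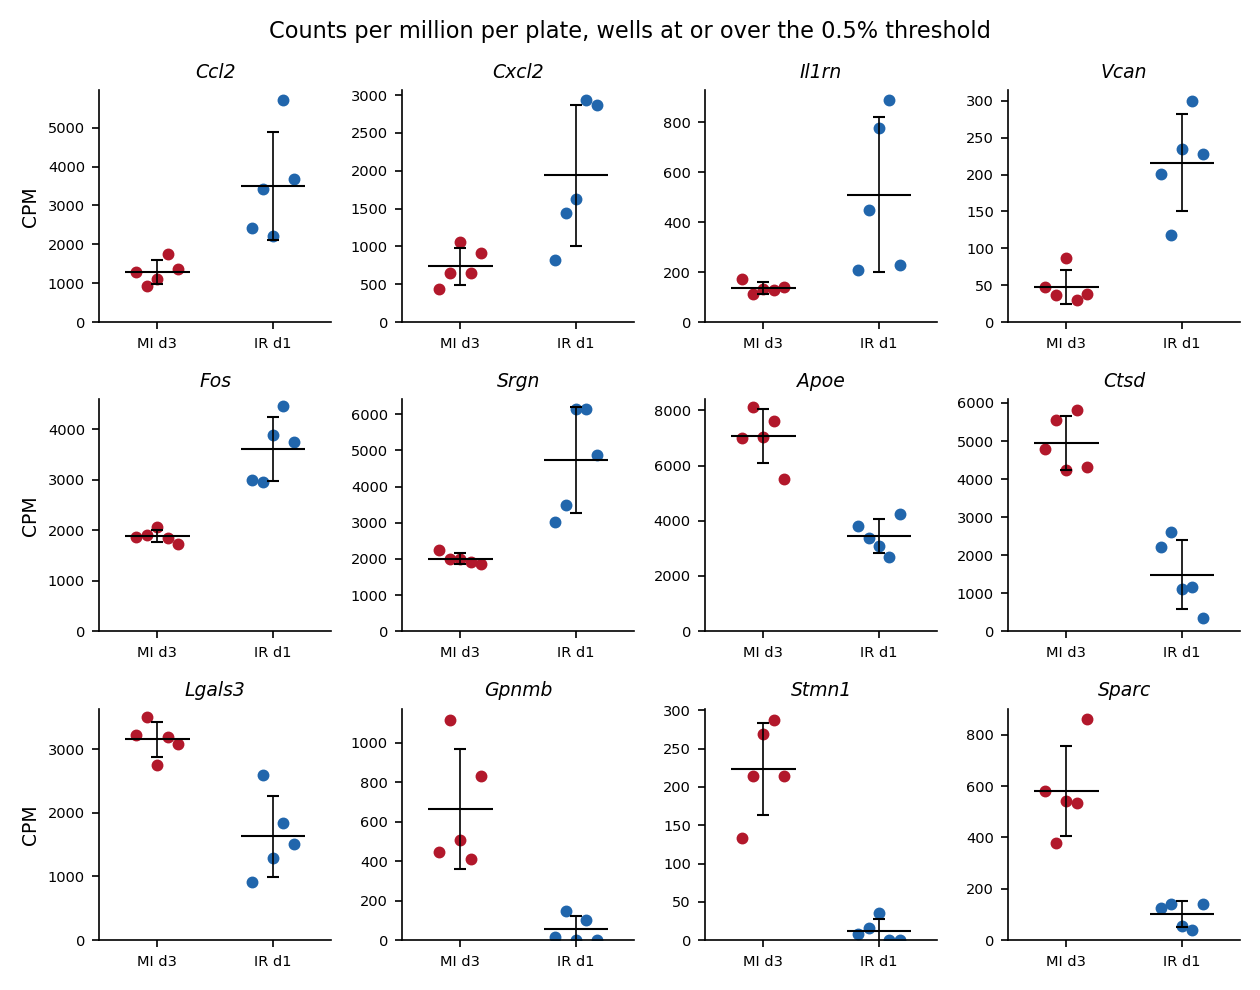
Level of 12 genes on each plate in the wider set of wells (0.5% threshold). The y axis of each panel gives CPM from 0, points are the 5 MI day 3 plates and the 5 IR day 1 plates, and lines give the mean and SD. Ccl2, Il1rn, Vcan, Fos and Srgn lie lower on every MI plate than on any IR day 1 plate, and Apoe, Ctsd, Lgals3, Gpnmb, Stmn1 and Sparc lie higher, while Cxcl2 overlaps.

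Several chemokine genes were lower in MI macrophages. Ccl3 and Ccl4, neighbours on chromosome 11 that encode closely related chemokines, fell at 1%, and of the 15 chemokines tested 2 were lower and 0 higher. Ccl3 was at 313, 252, 209, 223 and 188 CPM on the MI plates, 745 CPM on IR day 1 replicate 3 and 963 CPM over the other plates. It was 2.98-fold lower than on replicate 3 (log2 fold change -1.58 ± 0.24, adjusted p = 0.0151) and gave -1.96 ± 0.23 (adjusted p = 0.000732) against the others. Ccl4 was at 314, 126, 268, 258 and 287 CPM against 1128 and 592 CPM. Its difference of -2.12 ± 0.31 from replicate 3 (adjusted p = 0.0151) did not pass against the others (-1.20, adjusted p = 0.122). Neither gene passed in the wider set (Ccl3 -0.60, adjusted p = 0.391, and Ccl4 -0.42, adjusted p = 0.705), and IR day 1 replicates 4 and 8 were at 54.1 and 56.8 CPM of Ccl3.

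Against the other 7 plates 4 of 15 chemokines were lower (Ccl2, Ccl3, Ccl9 and Cxcl3) and 0 higher. At the 0.5% threshold 5 of 14 were lower and 0 higher, with 11 of 14 below 0 and a median of -0.62. Ccl2 (chr11:82035571-82037453), the chemokine that recruits monocytes through CCR2, was at 1295, 923, 1113, 1744 and 1365 CPM in MI and 2424, 3414, 2217, 5715 and 3692 CPM on the IR day 1 plates. Every IR plate exceeds every MI plate, and the gene was 2.6-fold lower in MI (log2 fold change -1.38 ± 0.23, adjusted p = 0.00173), with -1.34 after thinning (adjusted p = 0.000588) and a call in all 10 fits that left out a plate. At 1% it gave -1.13 against replicate 3 (adjusted p = 0.0839) and -1.60 against the other plates (adjusted p = 0.00792). Ccl9 and Ccl6, chemokines of the same gene cluster that bind CCR1, gave -1.14 (adjusted p = 0.0017) and -0.89 (adjusted p = 0.0357), and Ccl6 was lost in 7 of the 10 fits that left out a plate. Cxcl2 and Cxcl3, which attract neutrophils through CXCR2, were lower as well. Cxcl2 was at 439.6, 643, 1062, 647 and 908 CPM in MI and 822, 1447, 1622, 2936 and 2868 CPM on the IR day 1 plates (-1.28 ± 0.28, adjusted p = 0.0117), with MI replicate 3 above IR replicate 1. Without IR day 1 replicate 5 or MI replicate 4 its adjusted p reached 0.0531, and after thinning it was 0.06. Cxcl3 was at 57, 77.9, 45.4, 36.5 and 119.8 CPM in MI and 16.8, 114, 72.1, 665 and 2357 CPM on the IR day 1 plates, so replicates 5 and 8 carry the difference (-2.67, adjusted p = 0.0279, and up to 0.201 with a plate left out). At 1% the direction of the difference changed between the IR libraries for both genes. Cxcl2 was at 481 to 1405 CPM in MI, 778 CPM on replicate 3 and 2576 CPM over the others, and its log2 fold change was 0.09 (adjusted p = 0.958) against the first and -1.65 (adjusted p = 0.0597) against the second. Cxcl3 turned likewise from 1.04 (adjusted p = 0.671) to -3.43 (adjusted p = 0.000535).

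The promoters of Cxcl2 and Cxcl3 are shown because both hold GGAATTTCC, a sequence of the kind bound by NF-κB, a factor that acts on inflammatory genes. They are given as the 250 bases before the RefSeq start in GRCm38.p6 on the plus strand, at chr5:90903649-90903898 for Cxcl2 and chr5:90785851-90786100 for Cxcl3, with GGAATTTCC in capitals at 96 to 88 and at 72 to 64 bases before the start:
Cxcl2: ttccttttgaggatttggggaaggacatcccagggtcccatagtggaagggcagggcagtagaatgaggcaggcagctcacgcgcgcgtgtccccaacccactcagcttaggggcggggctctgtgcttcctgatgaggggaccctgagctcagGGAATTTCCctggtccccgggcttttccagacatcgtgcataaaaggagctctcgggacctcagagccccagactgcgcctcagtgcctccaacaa
Cxcl3: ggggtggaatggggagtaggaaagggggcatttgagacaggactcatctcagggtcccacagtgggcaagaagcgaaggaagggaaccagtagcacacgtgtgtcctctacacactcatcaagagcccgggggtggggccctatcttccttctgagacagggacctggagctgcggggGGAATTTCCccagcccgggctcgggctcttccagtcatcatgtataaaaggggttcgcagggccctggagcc
On either strand these letters lay in the window of 93 of 27025 genes (0.344%) and of 4 of 10 chemokine genes with a promoter on file, Cxcl1, Cxcl2, Cxcl3 and Cxcl10.

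Receptors for attractants included C5ar1, the receptor of complement C5a, which fell at 1% (1 of 12 receptors tested lower, 0 higher). C5ar1 was at 396, 357, 488, 443 and 492 CPM in MI, 1095 CPM on IR day 1 replicate 3 and 973 CPM over the other plates. The difference was of similar size in both fits (log2 fold change -1.28 ± 0.20, adjusted p = 0.0182, and -1.12 ± 0.20, adjusted p = 0.022). It did not pass in the wider set (-0.79, adjusted p = 0.0724), where 1 of 11 receptors was lower, the chemokine receptor Ccr1 (-0.76, adjusted p = 0.0223). Ccr1 was lost in 6 of the 10 fits that left out a plate, with an adjusted p of up to 0.0896. Of the complement genes and regulators 1 of 13 was lower at 1% against either IR library, again C5ar1, and against the other 7 plates 1 was higher, Cfp, which encodes properdin. In the wider set 2 of 9 were lower, among them Itgam, a chain of complement receptor 3 (-0.73, adjusted p = 0.0373), which was lost in 8 of the 10 fits that left out a plate.

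Of 16 cytokine genes tested at 1% 0 passed the test in edgeR against replicate 3, and 3 were lower (Il1a, Il1rn and Tnf) and 0 higher against the other 7 plates, with a median of -0.64. Of 13 tested in the wider set 1 was lower, Il1rn, which encodes the antagonist of the interleukin-1 receptor. It was at 173, 111, 131, 130.1 and 139 CPM in MI and 209.7, 449, 775, 887 and 227 CPM on the IR day 1 plates, with no overlap (-1.84 ± 0.28, adjusted p = 0.000744). Il1b, the cytokine itself, was at 435 to 731 CPM against 461 to 1526 CPM and did not pass (-0.67, adjusted p = 0.16).

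Ch25h, St3gal1 and Srgn, which stand in no list, fell in several fits. Ch25h, the enzyme that makes 25-hydroxycholesterol, was at 67.8, 14.7, 76.4, 79.1 and 44.7 CPM in MI, 481 CPM on IR day 1 replicate 3 and 201 CPM over the others. It was 8.21-fold lower than on replicate 3 (-3.04 ± 0.50, adjusted p = 0.0216) and passed in the wider set (-2.51, adjusted p = 0.00348), though not against the other 7 plates (-1.79, adjusted p = 0.182). St3gal1, a sialyltransferase of the Golgi, was at 56.9, 47.5, 65.2, 51.4 and 75.3 CPM in MI against 204 and 175 CPM. It passed in all 3 fits, at -1.77 (adjusted p = 0.0403), -1.56 (adjusted p = 0.0335) and, in the wider set, -1.40 (adjusted p = 0.00343). Srgn, which encodes serglycin, the core proteoglycan of secretory granules, was at 2253, 1984, 2008, 1919.8 and 1856 CPM in MI and 3011, 3485, 6148, 6132 and 4884 CPM on the IR day 1 plates of the wider set, with no overlap (-1.16 ± 0.19, adjusted p = 0.00122, and -0.87, adjusted p = 0.0174, after thinning).

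Immediate early genes, which encode factors that switch on within minutes of a stimulus, included 5 that were lower in the wider set. Of 21 tested 5 were lower (Fos, Zfp36, Junb, Dusp1 and Jun) and 0 higher, all 21 lay below 0, and the median was -0.73. At 1% against replicate 3 0 of 22 passed in edgeR (median -0.01), and against the other 7 plates 9 of 22 were lower. Fos, a subunit of the factor AP-1, was at 1866, 1910.5, 2071, 1844 and 1734 CPM in MI and 2986, 2953, 3876, 4449 and 3748 CPM on the IR day 1 plates, with no overlap (-0.86 ± 0.16, adjusted p = 0.00343, and -0.72, adjusted p = 0.0231, after thinning). Zfp36, which encodes a protein that destabilises cytokine mRNAs, gave -1.04 (adjusted p = 0.0118) and -0.94 after thinning (adjusted p = 0.0174), with IR day 1 replicate 8 at 738 CPM among the MI plates. Junb, Dusp1 and Jun were lost in 2, 4 and 7 of the 10 fits that left out a plate, with an adjusted p of up to 0.0757, 0.0639 and 0.106. With all plates they gave -0.70, -0.84 and -0.89 (adjusted p = 0.0175, 0.0181 and 0.0318). None of these 3 passed after thinning, where Jun turned to 0.42 (adjusted p = 0.697).

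Interferon-stimulated genes, which type I interferon switches on in response to viral or misplaced nucleic acid, included Ifit3 and Mx1, called lower than on replicate 3 and not against the other plates. No test compared the IR libraries with each other. Ifit3, which encodes a partner of an RNA-binding antiviral protein, was at 6.23, 13.8, 3.73, 4.89 and 2.35 CPM on the MI plates and at 204 CPM on IR day 1 replicate 3, but at 10.6 CPM over the other 7 plates. The log2 fold change of -4.79 ± 0.56 (adjusted p = 0.00388) became -0.57 ± 1.33 (adjusted p = 0.868). Mx1 was at 2.45 to 24.2 CPM in MI and at 171 and 5.29 CPM in the IR libraries, and its direction turned from -3.84 (adjusted p = 0.0458) to 1.13 (adjusted p = 0.802). Oas3, a synthase of 2′-5′-oligoadenylate, turned likewise from -3.02 (adjusted p = 0.0403) to 0.18 (adjusted p = 0.953). Ddx58, the RNA sensor RIG-I, and Phf11a and Trim30a were lower than on replicate 3 (-2.48, -2.91 and -1.63, adjusted p = 0.0261, 0.0151 and 0.0151) and did not pass against the other plates (-1.41, -0.73 and -0.30, adjusted p = 0.206, 0.614 and 0.66). Of the 21 genes of the list tested at 1%, 2 were lower (Ifit3 and Mx1), 0 higher and 1 lay above 0 (median -2.02), and the list's summed level was 0.0688% to 0.165% of UMIs in MI, 0.367% on replicate 3 and 0.254% over the other plates. Against the other plates 1 of 21 was lower, Ifi27l2a, and in the wider set 1 of 14, again Ifi27l2a, at 94.7, 161, 248, 312 and 237 CPM in MI and 1308, 331, 433, 1266 and 709.9 CPM on the IR day 1 plates (-1.90 ± 0.34, adjusted p = 0.00348). Thinned to 1000 UMIs, Ifit3 had a UMI in 13.3% of the 15 macrophage wells of replicate 3, in 0 of the 15 wells of the other plates (which allows up to 20%) and in 1.82% of the 55 wells of replicate 3 with under 0.1% of macrophage genes.

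The promoter of Ifit3 is shown because its window holds GAAANNGAA, part of the element to which interferon-activated factors bind, at 155 to 147, 121 to 113 and 102 to 94 bases before the RefSeq start (GRCm38.p6, chr19:34583279-34583528, plus strand). The 3 matches lie on the other strand and so appear in capitals as their reverse complement:
Ifit3: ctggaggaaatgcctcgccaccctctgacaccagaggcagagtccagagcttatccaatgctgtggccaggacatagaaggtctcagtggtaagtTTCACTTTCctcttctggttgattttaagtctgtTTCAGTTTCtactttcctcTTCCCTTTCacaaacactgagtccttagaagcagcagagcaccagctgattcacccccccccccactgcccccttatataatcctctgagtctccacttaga
The letters lay in the window of 2211 of 27025 genes (8.18%) and of 9 of 16 interferon-stimulated genes with a promoter on file.

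Several cell cycle genes were higher in MI in the wider set. Of 30 tested 24 were higher and 0 lower, but members with few UMIs over the IR day 1 plates passed the filter on low counts through the MI plates alone and could only come out higher, so the count is no support for the list. At 1% 0 of 34 passed in edgeR against replicate 3, where 12 of them had 0 UMIs, and 3 of 34 against the other plates (Cdk1, Birc5 and Stmn1). Stmn1, which encodes the microtubule regulator stathmin, was at 133, 214, 269, 288 and 215 CPM in MI and 8.39, 15.8, 36.1, 0 and 0 CPM on the IR day 1 plates, with 1593 and 7 UMIs in all. The groups do not overlap. With 10 or fewer UMIs over the IR plates, the levels of Stmn1 and Rrm1 are given as a description. Mcm6 and Mcm3, subunits of the helicase that opens DNA for replication, had 1199 and 763 UMIs on the MI plates and 20 and 18 on the IR day 1 plates. Their log2 fold changes of 2.19 and 1.64 rest on these low IR counts and are a description too. Pcna, the sliding clamp of DNA polymerase, gave 1.04 (adjusted p = 0.0265) and was lost in 5 of 10 fits that left out a plate. Rrm1, a subunit of ribonucleotide reductase, had 717 UMIs on the MI plates and 8 on the IR day 1 plates. Top2a, the DNA topoisomerase of dividing cells, had 1277 UMIs in 305 MI wells and 1 UMI in 50 IR day 1 wells, a ratio of levels of 94.9 with an exact 95% interval for counting error alone of 17.0 to 3750. Cdk1, the mitotic kinase, had 655 UMIs against 1 (48.7, 8.70 to 1925). Birc5, the survivin of the mitotic spindle, had 586 against 1 (43.5, 7.78 to 1722), and Rrm2 had 753 against 3 (18.7, 6.36 to 90.6). The cyclin genes Ccna2 and Ccnb2 had 0 UMIs on the IR day 1 plates and were at least 14.4-fold and at least 7.16-fold higher in MI, against a floor of 3 UMIs over the group (5.55 CPM).

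These transcripts were not particular to macrophage wells. The list summed to 0.430% of UMIs over the 161 MI macrophage wells at 1% and to 0.218% over the 30 IR day 1 wells. In the 222 wells of the MI plates with under 0.1% of macrophage genes it was 0.639%, and 0.348% in 55 such wells of IR day 1 replicate 3. The list reached 1% of UMIs in 9 of the 161 MI wells (5.59%) and in 0 of 30 IR day 1 wells, and in 28 of the 222 other MI wells (12.6%). Among IR day 3 macrophage wells it did so in 18 of 181 (9.95%). At the 0.5% threshold it did so in 31 of 305 MI wells (4 to 9 per plate) and in 0 of 56 IR day 1 wells. Thinned to 1000 UMIs, Top2a had a UMI in 0% to 11.8% of macrophage wells per MI plate against 11.3% of those other wells, so the share at equal depth was at the level of the background. The part of RNA from other cells in these values was not tested.

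The promoters of Top2a and Ccnb2 are shown because they hold both TTTGAA, the core of the cell cycle homology region at which the DREAM complex binds, and CCAAT, the box bound by NF-Y, which occur together before many genes of mitosis. Both windows lie on the minus strand of GRCm38.p6, at chr11:99024190-99024439 and chr9:70421555-70421804, and matches on either strand are in capitals:
Top2a: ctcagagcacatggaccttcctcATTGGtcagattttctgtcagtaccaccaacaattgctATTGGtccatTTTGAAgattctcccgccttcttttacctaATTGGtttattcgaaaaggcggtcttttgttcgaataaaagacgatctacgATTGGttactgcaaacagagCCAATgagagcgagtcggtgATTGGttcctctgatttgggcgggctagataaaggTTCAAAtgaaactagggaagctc
Ccnb2: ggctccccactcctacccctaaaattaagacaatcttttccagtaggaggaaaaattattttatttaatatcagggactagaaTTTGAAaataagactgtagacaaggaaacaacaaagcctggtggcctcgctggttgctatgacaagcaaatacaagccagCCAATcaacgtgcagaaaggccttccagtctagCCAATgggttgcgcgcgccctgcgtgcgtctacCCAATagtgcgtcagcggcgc
In Top2a, TTTGAA lies at 179 to 174 and, on the other strand, at 23 to 18 bases before the RefSeq start, and in Ccnb2 at 167 to 162. TTTGAA occurred in 4934 of 27025 windows (18.3%) and in 8 of 28 cell cycle genes with a promoter on file, and CCAAT in 10133 (37.5%) and in 21 of the 28.

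Matrix and growth factor genes were mixed. At 1% 0 of 26 passed in edgeR against replicate 3, and 2 were higher against the other 7 plates (Sparc and Mmp9). Outside the list stands Bgn, which encodes the proteoglycan biglycan. Bgn was at 145, 105, 190.04, 116 and 183 CPM on the MI plates and had 0 UMIs on IR day 1 replicate 3, so it was at least 7.47-fold higher in MI against a floor of 3 UMIs on that plate (19.8 CPM). Over the other plates it was at 5.29 CPM. With 0 UMIs on replicate 3, Bgn passed the filter on low counts through the MI plates alone, so its call carries no weight. Of 21 genes of the list tested in the wider set 4 were higher (Sparc, Mmp9, Mmp12 and Timp2) and 1 lower (Vcan). Mmp9 and Mmp12 entered the test through the MI plates alone and could only come out higher, so they add no support to this count. Timp2 was lost without MI replicate 2, 4 or 5 (adjusted p of up to 0.0692) and after thinning (adjusted p = 0.0963). Sparc, a collagen-binding protein, was at 582, 379, 544, 532 and 861 CPM in MI and 126, 142, 54.1, 39.1 and 142 CPM on the IR day 1 plates (2.44 ± 0.29, adjusted p = 0.000104, and 3.68, adjusted p = 0.000588, after thinning). Mmp9, a gelatinase, was at 70 to 306 CPM against 0 to 27.6 CPM with 8 UMIs over the IR plates, and like Mmp12 it passed the filter through the MI plates alone. Vcan, the proteoglycan versican that monocytes also make, was the gene that was lower, at 47.6, 37.3, 87.4, 29.5 and 37.9 CPM in MI against 201, 118, 234, 300.1 and 227 CPM on the IR day 1 plates (4-fold lower, adjusted p = 0.00122). Fibroblast markers moved with Bgn and Sparc, at 0.113% to 0.237% of UMIs on the MI plates of the wider set and 0.0183% to 0.0631% on the IR day 1 plates, and their part in these differences was not tested. Fn1, which encodes fibronectin, was at 1470 to 2493 CPM in MI against 4279.5 and 2919.7 CPM and did not pass (-0.99, adjusted p = 0.0773).

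Xirp2, Cox6a2 and Ttn, transcripts of heart muscle, were lower in MI macrophages. Xirp2, which encodes an actin-binding protein of the intercalated disc, was at 9.35, 11.2, 14.9, 21.2 and 40 CPM in MI, 218 CPM on IR day 1 replicate 3 and 175 CPM over the others (-3.60 ± 0.54, adjusted p = 0.0151, and -3.29, adjusted p = 0.0117). Cox6a2, the muscle form of a subunit of cytochrome oxidase, was at 12.2 to 24.2 CPM against 191 and 42.3 CPM (-3.44, adjusted p = 0.00388, and -1.27, adjusted p = 0.359). The giant sarcomere protein gene Ttn was at 2.7 to 19.4 CPM against 28.4 to 180.3 CPM in the wider set (-3.63). With 73 UMIs over the MI plates, Ttn passed the filter on low counts through the IR day 1 plates alone. It could only come out lower, so its levels are a description. The 15 cardiomyocyte markers summed to 0.0243% to 0.0774% of UMIs on the MI plates and to 0.0897% on replicate 3, where Myh7, Tnnc1 and Ryr2 were at 0. At the 0.5% threshold they summed to 0.0370% to 0.0950% in MI and to 0.0284% to 0.102% on the IR day 1 plates, and the part of cardiomyocyte RNA in these differences was not tested.

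Markers of monocyte-derived and of resident macrophages did not pass at 1% in edgeR against replicate 3 (0 of 18 and 0 of 16). Of the first list 0 of 17 passed against the other 7 plates, and of the second 3 of 16 were lower (Cd163, F13a1 and Mgl2) and 1 higher (Sepp1). In the wider set 3 of 15 genes of the monocyte-derived list were lower and 0 higher, with 12 of 15 below 0 (median -0.46), namely Vcan, the lectin receptor gene Clec4e (-0.92, adjusted p = 0.0424) and Itgam, the integrin CD11b (-0.73, adjusted p = 0.0373). Of these only Vcan was called in all 10 fits that left out a plate. Ccr2, the receptor that marks recruited monocytes, was at 249 to 391 CPM in MI and 343 to 1719 CPM on the IR day 1 plates (-1.15, adjusted p = 0.0532), and passed after thinning (-1.59, adjusted p = 0.00894). IR day 1 replicate 1 was the highest plate for Ccr2. Wells between 0.5% and 1% were at 470.05 CPM in MI and 1123 CPM in IR day 1, and wells at 1% and over at 260 and 382 CPM. At 1% Ccr2 gave -1.07 (adjusted p = 0.326) against replicate 3 and -0.03 (adjusted p = 0.986) against the other plates. Of the resident list 1 of 13 was lower, F13a1, the A chain of coagulation factor XIII, at 686, 1027, 609, 933 and 765 CPM in MI and 1409, 1735, 3443, 1331 and 1590.3 CPM on the IR day 1 plates (-1.17 ± 0.23, adjusted p = 0.00766). Lyve1 and Folr2 did not pass (-2.06, adjusted p = 0.116, and -0.05, adjusted p = 0.959), and at 1% Lyve1 was at 66.2, 16.4, 22.4, 94.6 and 729 CPM on the MI plates, so MI replicate 5 stands apart. Pf4, a platelet factor that macrophages also make, was at 1976 to 3680 CPM in MI against 6106 and 5612 CPM (-0.99, adjusted p = 0.0942). Of 12 alternative activation genes 0 passed at 1% in edgeR against replicate 3, 1 was higher (Tgm2) and 1 lower (Cd163) against the other 7 plates, and 1 of 11 was higher in the wider set, the transglutaminase gene Tgm2 (1.28, adjusted p = 0.00923, and 0.295 after thinning).

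Of the MHC class II genes, which encode the proteins that present antigen to T cells, 0 of 8 tested passed in edgeR at 1% or in the wider set. Cd74, the invariant chain, was at 779.7, 107, 168, 443 and 119.96 CPM on the MI plates, 297 CPM on IR day 1 replicate 3 and 1380.5 CPM over the other plates. In the wider set it was at 2315, 181, 1442, 639 and 4032 CPM on the IR day 1 plates (-1.87 ± 0.53, adjusted p = 0.0605). At 1% replicate 3 lies within the range of the MI plates and the sum of the other plates above it, and the median of the list was 0.49 against replicate 3 and -1.12 against the others.

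Zeb2, a repressor that monocytes and macrophages also express and that the study follows in cardiomyocytes, was at 332, 271, 309, 217 and 292 CPM on the MI plates, 396 CPM on IR day 1 replicate 3 and 307 CPM over the others. The difference did not pass the test (log2 fold change -0.42 ± 0.27, adjusted p = 0.506, and -0.40 ± 0.19, adjusted p = 0.319, in the wider set). Tmsb4x, thymosin beta-4, gave 0.10 ± 0.19 (adjusted p = 0.852), Ptma, prothymosin alpha, 0.01 ± 0.21 (adjusted p = 0.987) and B2m, the light chain of MHC class I, 0.08 ± 0.18 (adjusted p = 0.886). The related Tmsb10 rose from 442 CPM on replicate 3 to 908 to 1175 CPM (1.28, adjusted p = 0.0403, and 1.18, adjusted p = 0.0282, against the other plates), but did not pass in the wider set (adjusted p = 0.146). Gnas, the stimulatory G protein subunit, was at 846, 885, 866, 816 and 868 CPM in MI against 376 and 359.7 CPM and was called against the other plates, in the wider set, and at 1% with all plates of at least 1 macrophage well, a fit that tested 13 of the 22 genes (log2 fold change 1.25 ± 0.21, adjusted p = 0.0261, and 0.86, adjusted p = 0.00669, in the wider set). In the fit with plates of at least 1 well Gnas alone of the 13 was called. There Ctsd and C5ar1 (adjusted p = 0.0508 each, edgeR) and Apoe (0.054) lost the call, and the rest ran from 0.0503 (Ch25h) to 0.845 (Erdr1). At equal depth, however, Gnas had a UMI in 38.2% to 57.8% of macrophage wells per MI plate, in 40% on replicate 3 and in 40% over the other 7 IR day 1 plates, so the IR values lay within the MI range. In the other wells of the MI plates the share was 79.7%. Thinned to 2000 UMIs, Gnas was at 71.9% to 93.9% per MI plate and 53.3% in both IR libraries, below every MI plate, with 94.1% in the other wells of the MI plates. In the wider set thinned to 1000 UMIs it passed the test (adjusted p = 0.0439, edgeR). The ribosomal protein gene Rps23 and Erdr1 were called against replicate 3 (1.09, adjusted p = 0.0397, and 1.93, adjusted p = 0.0182) and not against the other plates (0.21, adjusted p = 0.582, and 0.08, adjusted p = 0.898), and of 76 ribosomal protein genes 1 was called, Rps23.

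Shares of macrophage wells with a UMI were set side by side after thinning each well to 1000 UMIs. Gpnmb had a UMI in 33.3%, 44.1%, 36.4%, 29.0% and 36.4% of wells on MI replicates 1 to 5, in 6.67% of the 15 wells of IR day 1 replicate 3 and in 0 of the 15 wells of the other 7 plates, which allows up to 20%. In wells of the same plates with under 0.1% of macrophage genes the share was 3.6% (MI) and 1.82% (replicate 3). Unthinned, Gpnmb had a UMI in 45.5% to 88.2% of wells per MI plate and in 20% of those of replicate 3, but in 39.2% of the other wells of the MI plates. Apoe was at 95.5% to 100% in MI, 80% on replicate 3 and 73.3% over the others, Ctsd at 93.3% to 100%, 73.3% and 46.7%, and Spp1 at 72.7% to 89.5%, 66.7% and 20%. In the other wells of the MI plates these 3 were at 34.7%, 29.3% and 27.5%. Ccl2 was at 46.7% to 73.7% in MI, 80% and 66.7%. Cxcl2 was at 23.5% to 40.9% in MI and 33.3% on replicate 3, but at 73.3% over the other plates. Thinned to 2000 UMIs, the gap for Apoe narrowed on replicate 3 (93.3% against 96.9% to 100% in MI) and closed over the others (100%). Ctsd was at 97.7% to 100%, 100% and 40%, so replicate 3 no longer lay apart, and Gpnmb at 36.4% to 54.5%, 13.3% and 6.67%. With 5 plates against 1 the exact permutation test over plates (two-sided) cannot go below p = 0.167, so none of the 16 genes could pass it (smallest adjusted p = 0.381).

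**Figure D5:**
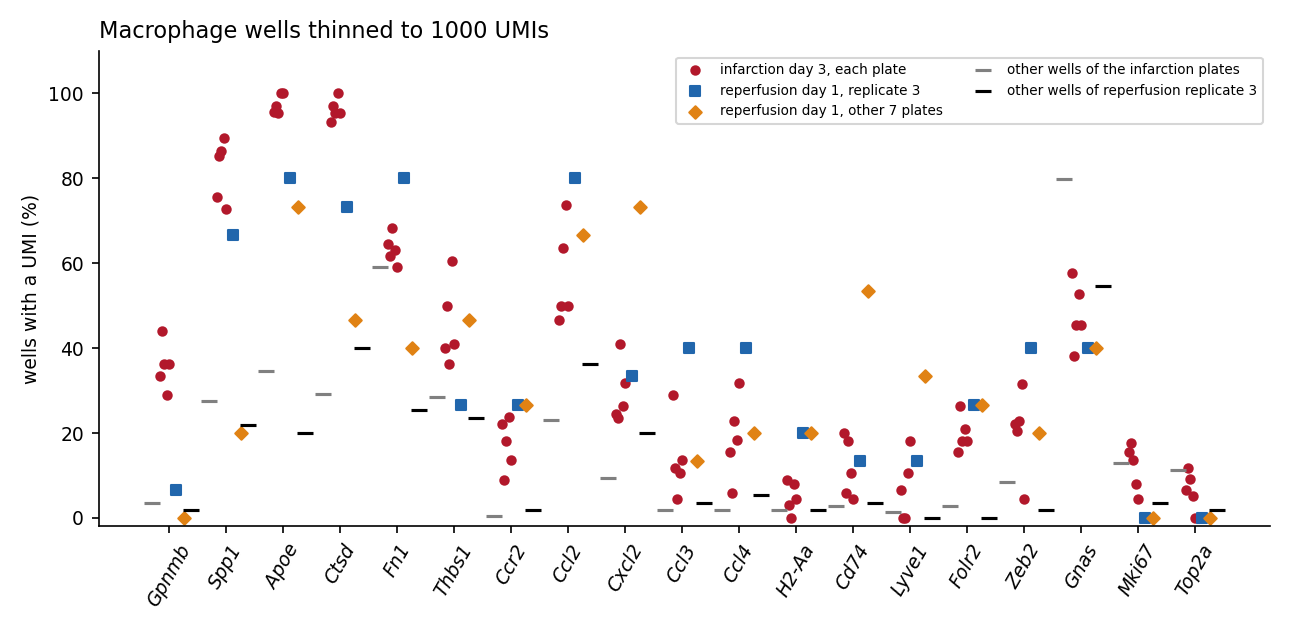
Percentage of macrophage wells with at least 1 UMI of each gene after every well was thinned to 1000 UMIs. Circles are the 5 MI day 3 plates, squares IR day 1 replicate 3, diamonds the other 7 IR day 1 plates together, and bars the wells of the same plates with under 0.1% of macrophage genes. Gpnmb lies at 29.0% to 44.1% in MI and at 0 to 6.67% in both IR libraries, while for Gnas and Top2a the other wells of the MI plates lie above most macrophage values.

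Macrophages of IR day 3 (181 wells on 6 plates with 6 to 79 each) give the same genes under the other kind of ligation at the later day. In a fit of all 3 groups 1014 of 9221 genes differed between MI day 3 and IR day 3 (11%), 611 higher (6.63%) and 403 lower (4.37%), and 79 (0.857%) between IR day 3 and IR day 1 (5 higher, 0.0542%, and 74 lower, 0.803%). In this fit IR day 1 stands for the single plate replicate 3. The comparisons share samples, so values are given side by side only. Ctsd, Apoe and Fabp5 did not pass the test between MI and IR at day 3 (log2 fold change 0.23, -0.31 and -0.51, adjusted p = 0.735, 0.474 and 0.483), and IR day 3 plates ran from 8918 to 16846 CPM of Apoe. Ch25h, Ccl4 and C5ar1 were lower at IR day 3 than on IR day 1 replicate 3 (-3.61, -2.64 and -2.31). For each of these genes that plate lay above the level over the other 7 IR day 1 plates. Thbs1 and Ccl2 were higher in MI than at IR day 3 (2.01 and 1.27, adjusted p = 4.54e-05 and 0.00127), and Cd74 and H2-Aa were lower (-1.93 and -2.83, adjusted p = 0.00331 and 0.000556). By list, 20 of 28 glycolysis and hypoxia genes, 42 of 76 ribosomal protein genes and 9 of 12 alternative activation genes were higher in MI than at IR day 3, and 15 of 23 interferon-stimulated genes were lower. Cardiomyocyte markers summed to 0.0916% to 0.474% of UMIs on the IR day 3 plates and to 0.0243% to 0.0774% on the MI plates, with no overlap, and their part was not tested. IR day 3 replicates 4 and 7 hold 79 and 60 of the wells, and 525 and 571 genes were called without each of them in turn and 190 without both. With every well thinned to 1000 UMIs 107 genes were called, and 50 at the 2% threshold. Of the 9 macrophage wells of IR day 3 replicate 6, 7 match wells of a day 14 sham plate, and 935 genes were called with all copied wells left out.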

How the data were processed

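SORT-seq libraries of single sorted heart cells had been made on multi-well plates, 1 cell per well. Per the labels the authors mapped reads with BWA to the mouse genome (GRCm38, mm10), and deposited, for each of 36 plates, a table of UMI counts per gene and well. UMIs had 6 bases, and the highest value of 4096 shows that the deposited counts are not corrected for molecules that share a UMI. Mitochondrial genes and spike-ins were left out of totals. Wells were chosen by the rule given above, and the members and gene lists were chosen with earlier results of these data known. Because each well received 1 sorted cell, no doublet caller was run.

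UMI counts were summed over the macrophage wells of each plate with at least 5 such wells, scaled by TMM, filtered with filterByExpr and tested with the quasi-likelihood test of edgeR 4.0.16 in R 4.3.3, adjusted over all genes tested by Benjamini-Hochberg with a threshold of 0.05. The 15 genes of the rule stayed in the library sizes and were not counted as calls. With 1 IR day 1 plate the spread came from the MI plates alone. Shares were compared over plates by exact permutation tests (scipy 1.17.1). Alternatives were DESeq2 1.42.0, other scalings, filters, depths and thresholds, and leaving out each plate. Total UMIs per plate set the precision, and intervals and floors of 3 UMIs cover counting error only.

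Genes were named by rule: the 12 largest called changes in each direction with no overlap and at least 50 CPM in the higher group, from each of 24 lists the 3 called members with the smallest adjusted p in each direction or, with fewer than 2 called, the 2 with the highest CPM, and Zeb2, Tmsb4x, Ptma and B2m. Some of the genes this rule names are not reported here. Gene positions are from GENCODE vM21 (GRCm38), promoters from RefSeq (GRCm38.p6).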

Additional observations from a re-analysis of the deposited data

Results flagged for a closer look

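Of 167 groups of plates tested for a single plate far from the others by Dixon's test, 13 were marked, where chance marks about 1 in 20. At the 1% rule MI replicate 2 was the highest plate for Fabp5 (1929 CPM) and for Lyz1 (11046 CPM), and MI replicate 5 for Lyve1 (729 CPM). At the 0.5% threshold MI replicate 5 was again far above the others for Lyve1 (371 CPM), and MI replicate 4 was highest for Mcm6 (227 CPM) and Pcna (500 CPM). Among the IR day 1 plates replicate 8 was highest for Cxcl3 (2357 CPM) and Timp2 (426 CPM), replicate 4 for F13a1 (3443 CPM) and replicate 1 for Ccr2 (1719 CPM). For Top2a (8.39 CPM on IR day 1 replicate 1) and for Cdk1 and Birc5 (3.94 CPM each on IR day 1 replicate 3) the marked plate held the only UMI of the group.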

How the results depend on the processing

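With 1 IR day 1 plate the number of genes called between MI and IR day 1 depended on the settings, and the causes were not tested. Against 22 as reported, 158 genes were called with no filter on low counts, 52 with DESeq2, 8 with every well thinned to 1000 UMIs and 117 with plate sums thinned to the lowest. Leaving out 1 MI plate gave 19 to 49, with 49 without MI replicate 3 and 41 without MI replicate 5. Of settings chosen after seeing the data, plates of at least 1 well gave 10, the 0.5% threshold 190, both together 83, and the sum of the other 7 IR day 1 plates 83. The 0.5% threshold gave 193, 200, 243, 163 and 205 genes without IR day 1 replicate 1, 3, 4, 5 or 8, and 122, 113, 117, 92 and 138 without MI replicate 1, 2, 3, 4 or 5. Under RLE scaling, a stricter filter, UMI correction, 3000 UMIs, Rn45s out and a joint fit with IR day 3 the count was within 1.5 times of 22. A minimum of 10 wells, leaving out wells with markers of other cells and leaving out copied wells gave the same 22 of 9260 and say nothing of stability. Apoe lost its call under RLE scaling (adjusted p = 0.0519), UMI correction (0.0525), 3000 UMIs (0.0528) and the stricter filter (0.0778), which also lost Ctsd (0.071), Rps23 and Tmsb10 (0.0572 each), all in edgeR, and DESeq2 lost Ch25h (adjusted p = 0.0977), Bgn (0.0954) and Mx1 (0.23). Thinned wells lost Apoe, Bgn, C5ar1, Ccl3, Ctsd, Erdr1, Fabp5, Gnas, Rps23 and Tmsb10, at adjusted p of 0.0987 to 0.544, and thinned sums lost Oas3 (0.0862). The split of 9 higher and 13 lower became 1 and 27 in the joint fit, 9 and 1 with plates of at least 1 well and 5 and 17 with the stricter filter.

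Between MI and IR day 3, against 1014 as reported, 598 genes were called with DESeq2, 107 with thinned wells, 65 with thinned sums, 97 with plates of at least 1 well, 399 with the 0.5% threshold and at least 1 well, 50 with a 2% threshold, 525 to 1025 with 1 plate left out and 190 without IR day 3 replicates 4 and 7. RLE scaling gave 1005, of which 49.8% were higher in MI against 60.3% as reported. Between IR day 3 and IR day 1, against 79, it was 125 with DESeq2, 8 with thinned wells, 2 with thinned sums, 227 with wells of 3000 UMIs, 121 with 10 wells, 220 with at least 1 well, 779 with the 0.5% threshold, 589 with both, and 50 to 118 with 1 plate left out, lowest without IR day 3 replicate 4.

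The share of macrophage wells kept its direction and stayed past the threshold under every alternative, at 1.88 to 31.5 percentage points.

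Replicate numbers paired the plates weakly at most: deviations of same-numbered plates correlated at 0.000725 to 0.0853, and those of other pairs at -0.062 to 0.0338. With plates 1 to 5 of both groups and at least 1 well a plate, 40 genes were called with the replicate block and 47 without it, and Ccl4 turned to 0.27 under the block. At 1% with at least 5 wells the groups share only number 3, so no block could be fitted. At 0.5% they share numbers 1, 3, 4 and 5, whose plates correlated at -0.0285 to 0.0497, and 106 genes were called with the replicate block and 137 without it on the same plates, both chosen after seeing the data. Plates numbered 5 did not correlate best with their own number.

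Of 1630 log2 fold changes of 70 named genes under alternatives, 1377 kept direction and side of the threshold, 99 lost the call and 38 gained it, 107 turned in direction with no call on either side, and 9 turned with a call on one side. Beside Ccl4 these were, against the other 7 plates, Cebpb (-1.07), Mx1 (1.13), Oas3 (0.18) and Cxcl3 (-3.43), and at the 0.5% threshold Cxcl2 (-1.28) and Cxcl3 (-2.67), with -1.99 and -3.52 at a minimum of 1 well. At 0.5%, of 761 values of 62 genes 632 kept both, 113 lost the call, 6 gained it and 9 turned with no call, and Jun turned to 0.42 after thinning. Against IR day 3, Ifit3 turned to 0.59 without IR day 3 replicates 4 and 7.

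Not run were the 2% threshold and a fit without IR day 1 replicate 3 against IR day 1, since no IR day 1 plate was left, and a fit with the plate left out for copied wells, which did not reach 5 wells. The 151655 UMIs of the single IR day 1 plate limit what can be seen of genes under about 20 CPM, the level of 3 UMIs there.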

Other observations

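The remaining lists gave few or no calls between MI and IR day 1. Cytosolic ribosomal proteins had a median log2 fold change of 0.15 against IR day 1 replicate 3 (76 tested) and -0.04 against the other 7 plates, and Rpl41 gave 0.24 (adjusted p = 0.684) and Rpsa 0.26 (adjusted p = 0.637). Of the 78 nuclear genes of the respiratory chain and ATP synthase, 39 lay above 0 and 39 below against replicate 3, and Cox6a2 was the 1 gene called. With the other 7 plates 1 of 78 was higher, Cox7a2l. In the wider set 2 of 76 were called, Cox6a2 lower and Cox7a2l, which acts in the assembly of respiratory supercomplexes, higher (1.24, adjusted p = 0.00885). Cox6a2 was lost there without IR day 1 replicate 3 (adjusted p = 0.267).

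Of 27 glycolysis and hypoxia genes 0 were called by edgeR at 1% against replicate 3 (median -0.19) and 0 of 26 in the wider set (median 0.14), and Aldoa gave -0.30 (adjusted p = 0.488) and Pkm -0.31 (adjusted p = 0.479). In the same fits 0 of 10 MHC class I genes were called, 0 of 19 heat shock genes and chaperones and 0 of 18 in the wider set, 0 of 19 and 0 of 14 scavenger receptors, 0 of 24 and 0 of 21 transcription factors, and 0 of 14 iron and haem genes. Against the other 7 plates 1 transcription factor gene (Cebpb) and 1 gene of both the scavenger and the iron list (Cd163) were lower, and 0 genes of the glycolysis, MHC class I and heat shock lists were called. H2-D1 gave 0.57 (adjusted p = 0.26), Hspa8 0.02 (adjusted p = 0.979), Lrp1 0.34 (adjusted p = 0.476) and Fth1 0.50 (adjusted p = 0.317). Across all genes 1163 had an unadjusted p under 0.05 in the same test at 1%, and DESeq2 called 52.

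Of 20 oxidative stress genes 0 were called at 1% against replicate 3, and in the wider set 1 of 19, Sod1, the cytosolic superoxide dismutase. Sod1 was at 319.98, 362, 374, 342 and 364 CPM on the MI plates and 176, 130.1, 108, 144 and 114 CPM on the IR day 1 plates, with no overlap (1.37 ± 0.20, adjusted p = 0.000397). At 1% its log2 fold change was 1.29 (adjusted p = 0.0719) against replicate 3 and 1.53 (adjusted p = 0.0188) against the other plates. Of 16 genes of cholesterol efflux and lipid handling 2 were higher at 1% against replicate 3 (Apoe and Fabp5), 1 against the other plates (Apoe) and 2 of 16 in the wider set (Apoe and Plin2).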
